A study of Caenorhabditis elegans with 4 samples.

Results

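The piRNA domains of chromosome IV, the left one from 4500000 to 7000000 and the right one from 13500000 to 17200000 on WormBase WS220, held 249 of the 4214 TBP-1 peaks listed for the whole series. A peak was counted where its centre, the mean of its start and end, lay within these bounds. The left domain, 2.5 Mb long, held 94 of them and the right domain, 3.7 Mb long, held 155. The remaining 11.3 Mb of IV, called the rest of IV here, held 440 peaks. The bounds are those of regions known to be dense in piRNA genes and are not set by a TBP-1 value, but the domains were picked for description with earlier results of these data known.

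TBP-1, the TATA-binding protein of the worm, is a general factor with which nuclear RNA polymerases start transcription at promoters. piRNAs are short RNAs that guide the Argonaute protein PRG-1 in the Caenorhabditis elegans germline, where they silence transposons and other foreign sequences. Most of them are made by RNA polymerase II from very short transcription units crowded into both domains, and their transcription needs the chromatin-associated protein PRDE-1 and SNPC-4, a subunit of the complex that also activates small nuclear RNA genes. The domains carry ordinary protein-coding genes between the piRNA genes, and germline precursors are a small share of the cells of an embryo. In the RefSeq gene table of WBcel235, 14714 of 15363 piRNA genes (95.8%) were on IV. That table is of another build than the peaks, so the places of piRNA genes within IV were not compared with the peaks and no peak was assigned to a gene.

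The lists came from chromatin immunoprecipitation and sequencing (ChIP-seq). All 4 samples were wild-type N2 embryos of mixed stages and mixed sex at 20 °C, fixed in 2% formaldehyde for 30 minutes. TBP-1 was immunoprecipitated with a rabbit polyclonal antibody in 2 replicates, and 2 input DNA samples were taken beside them. Peak lists of the input samples were not analysed here. No label says that the replicates were separate cultures, and their spread may thus be technical. Across the nuclear chromosomes the list of replicate 1 had 1684 peaks, that of replicate 2 had 2660 and the series list had 4203, and IV held 286, 445 and 689 of them. Read depth is unknown, because the lists give a start, an end and a score per peak and no read counts.

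**Figure D1:**
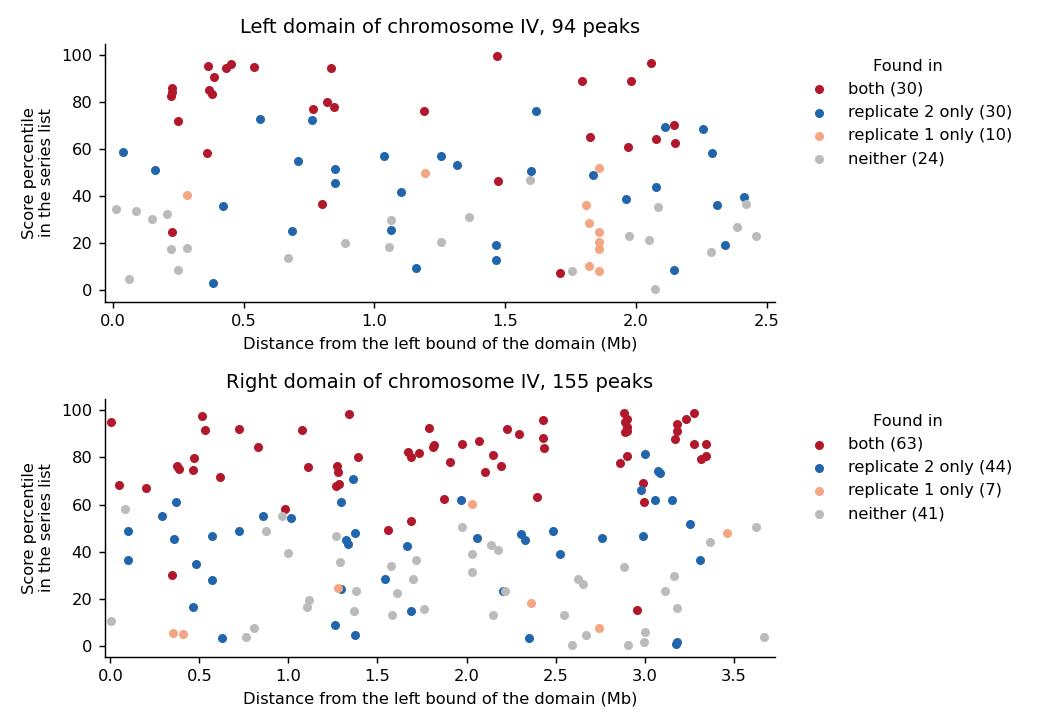
Each point is 1 of the 249 series-list peaks of the domains, placed by its distance from the left bound of its domain in Mb (x) and by the percentile of its score among all nuclear peaks of the series list (y). Colours show in which replicate list an overlapping peak was found; the 93 peaks found in both (30 in the left and 63 in the right domain) have a median percentile of 81.9, and the 65 found in neither one of 23.1.

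TBP-1 peaks lay throughout both domains, at a density that did not differ from the rest of IV beyond the test's threshold in any list. In the left domain there were 14.8 peaks per Mb in replicate 1, 25.6 in replicate 2 and 37.6 in the series list, against 15.5, 24.0 and 39.0 per Mb in the rest of IV. The right domain had 20.0, 29.7 and 41.9 peaks per Mb in the same lists. The left domain thus lay above the rest of IV in replicate 2 and below it in the other lists, while the right domain was above it in all 3 lists.

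For the left domain the density ratio to the rest of IV was 0.96 in replicate 1 (95% exact interval 0.65 to 1.37), 1.07 in replicate 2 (0.80 to 1.41) and 0.97 in the series list (0.76 to 1.21). For the right domain it was 1.29 (0.97 to 1.70), 1.24 (0.98 to 1.55) and 1.08 (0.89 to 1.29). The mean of the replicates was 1.01 ± 0.079 for the left domain and 1.26 ± 0.037 for the right domain (SD, n = 2). Two-sided exact binomial tests against length, adjusted by the Benjamini-Hochberg method over 9 tests, gave 0.30 as the lowest adjusted p, for the right domain in both replicates (unadjusted exact p = 0.066 and 0.065). The test treats peaks as independent, which neighbouring peaks are not. The intervals leave room for a density up to 1.70 times that of the rest of IV in the right domain of replicate 1, and do not show that the densities are equal.

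**Figure D2:**
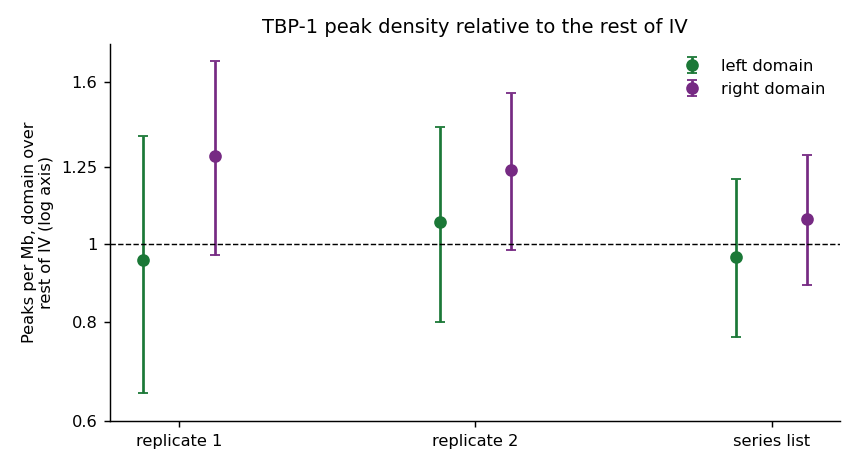
Points are the TBP-1 peaks per Mb of each domain divided by those of the rest of IV, on a log axis, for the 2 replicate lists and the series list; bars are 95% exact intervals that cover the counting of peaks only. Every interval includes 1 (dashed line), and the right domain lies between 1.08 and 1.29.

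Set against each other, the left domain had fewer peaks per Mb than the right domain in every list, with ratios of 0.74 (0.48 to 1.11) in replicate 1, 0.86 (0.62 to 1.18) in replicate 2 and 0.90 (0.69 to 1.17) in the series list. None of these passed the exact binomial test (adjusted p = 0.44, 0.67 and 0.67). The rest of IV was itself uneven: the stretch left of the left domain had 40.7 series-list peaks per Mb, the stretch between the domains 38.6, and the 0.294 Mb right of the right domain 20.4, from 6 peaks. Against only the 1 Mb of IV on each side, the left domain's ratio was 1.74 in replicate 1 (0.96 to 3.30), 1.11 in replicate 2 (0.75 to 1.66) and 1.19 in the series list (0.86 to 1.67). These flanks held 8.5, 23.0 and 31.5 peaks per Mb. The right domain's ratios to its own flanks were 1.18, 1.24 and 1.15 in the same lists. None of these ratios passed the exact binomial test either (adjusted p of 0.51 to 0.63). Right of the right domain the flank was only 0.294 Mb, so the flanks of both domains came to 3.29 Mb. For both domains together the ratio to these flanks was 1.51 in replicate 1 (interval 1.04 to 2.24). It was 1.20 in replicate 2 (0.91 to 1.59) and likewise 1.20 in the series list (0.96 to 1.52). The replicate 1 interval leaves out 1, but this pooled ratio was outside the family of tests and rests on 39 flank peaks.

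No 500-kb window of the domains was empty in any list. These windows of 500 kb held 14 to 25 series-list peaks in the left domain and 16 to 24 in the right domain, against 9 to 37 in the rest of IV. In replicate 1 they held 5 to 13 peaks in the left domain and 8 to 12 in the right domain, against 1 to 20 in the rest of IV. Replicate 2 windows held 11 to 15 in the left domain and 11 to 18 in the right domain, against 5 to 22 in the rest of IV. The domains have 5 and 7 such windows and the rest of IV has 22, and the difference in range was not tested. The first 500 kb of the left domain was its fullest window in all 3 lists, with 13, 15 and 25 peaks in replicate 1, replicate 2 and the series list.

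**Figure D3:**
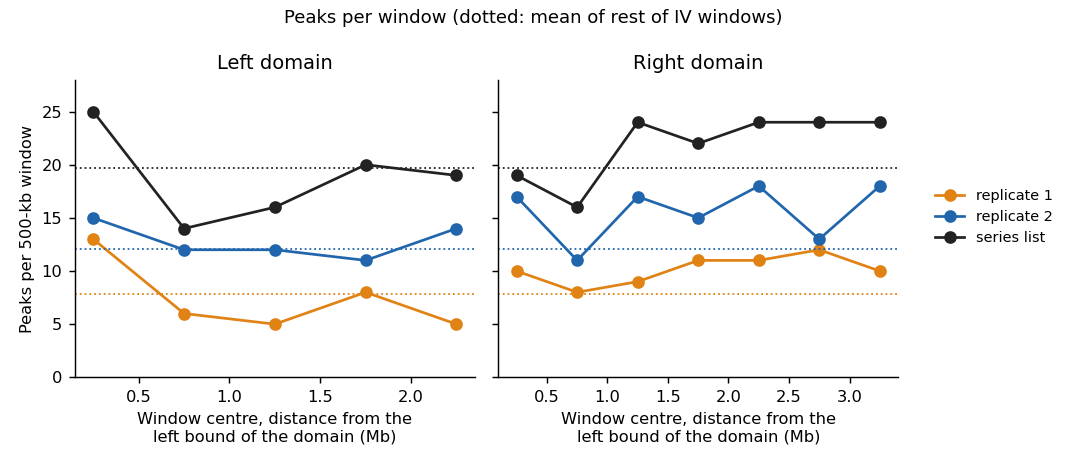
Number of TBP-1 peaks per 500-kb window (y) against the distance of the window's centre from the left bound of its domain in Mb (x), for each list; dotted lines are the mean over the windows of the rest of IV. In the right domain 5 of the 7 windows of the series list hold 22 to 24 peaks, above the mean of 19.7 in the rest of IV, and the last 0.2 Mb, which fill no window, are not drawn.

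In windows of 100 kb, the median was 3 series-list peaks in the left domain, 4 in the right domain and 3.5 in the rest of IV. Windows without any series-list peak were 1 of 25 in the left domain and 2 of 37 in the right domain, against 9 of 112 in the rest of IV. The fullest 100-kb windows held 10 peaks each, at 4700000 to 4800000 and 6300000 to 6400000 in the left domain and at 14700000 to 14800000 in the right domain. None of the 30 peaks in these 3 windows was among the strongest 10% of the series list, against 10.8% of all domain peaks. So few peaks cannot set these windows apart. Among all nuclear series-list peaks, 34.5% were found in both replicates, 29% in neither and 5.21% in replicate 1 only. In the window from 4700000, 5 of the 10 peaks were found in both replicates and 4 in neither. Of those in the window from 14700000, 4 were found in both replicates, 3 in replicate 2 only, 1 in replicate 1 only and 2 in neither.

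In the window from 6300000 the make-up was another: 8 of its 10 peaks were found in replicate 1 only and 1 in both replicates. Of the 8, 5 lay inside a single replicate 1 peak at 6357805 to 6361137, 3333 bp wide with a score of 865.87 (73.4th percentile), which was the widest replicate 1 peak of either domain and had no replicate 2 counterpart. The series list broke it into pieces of 321 to 942 bp with scores of 3.63 to 12.65, the last of which, at 6360015 to 6360956, was the widest series-list peak of the left domain. By distance from centre to centre, the closest neighbours of the left domain lay in the same window. They were 6320386 to 6320531 and 6320587 to 6320733, with centres 201.5 bp apart and 55 bp between their edges. Both overlapped 1 replicate 1 peak of 246 bp with a score of 52.28.

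Distances between neighbouring peaks had nearly equal medians in the full series list. From centre to centre, the median distance in the series list was 15.4 kb in the left domain (quartiles 3.07 and 35.2 kb), 15.4 kb in the right domain (3.77 and 31.9 kb) and 15.3 kb in the rest of IV (3.42 and 34.4 kb). Neighbours closer than 1 kb made up 12 of 93 distances in the left domain (12.9%) and 17 of 154 in the right domain (11.0%), against 41 of 437 in the rest of IV (9.38%). Several of the left domain's short distances lay between the 5 pieces of the single 3333-bp replicate 1 peak. The replicate lists gave medians of 21.1 and 22.9 kb in the left domain and 36.4 and 22.3 kb in the right domain, against 25.3 and 22.7 kb in the rest of IV (replicate 1 and replicate 2). In replicate 1 the right domain thus had more peaks per Mb than the left domain and the rest of IV, and also a longer median distance. With only series-list peaks found in both replicates, the median distance minus that of the rest of IV was -5.42 kb in the left domain and 10.4 kb in the right domain.

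The closest pair of the right domain was 14070659 to 14070855 and 14070905 to 14071226, 49 bp apart, and 1 replicate 2 peak of 1014 bp covered both. The longest stretch without a series-list peak was 149 kb in the left domain, from 5388846 to 5537829, where no replicate peak had its centre and the replicate 2 peak at the right edge reached 251 bp into the stretch. In the right domain it was 163 kb, from 16963955 to 17127165. Wholly inside it replicate 1 had 2 weak peaks and replicate 2 had 1, with scores of 57.16 to 66.62. In the rest of IV the longest distance between centres was 255 kb.

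Median peak widths of the domains were close to those of the rest of IV in the series list and lower in the replicate lists. Median widths in the series list were 280 bp in the left domain (quartiles 199 and 379 bp), 269 bp in the right domain (197 and 417.5 bp) and 269.5 bp in the rest of IV (192 and 432 bp). In replicate 1 they were 452, 489.5 and 570 bp in the same order, and in replicate 2 they were 793, 833 and 880 bp. The lower replicate 1 widths were not limited to the domains, since the stretch left of the left domain had a median of 460 bp and the stretch between the domains one of 616 bp. Peaks over 3 kb were few everywhere. In replicate 1 they were 1 of 111 domain peaks, described above, against 7 of 175 in the rest of IV and 35 of 1684 nuclear peaks. In replicate 2 they were 0 of 174 against 7 of 271 in the rest of IV and 46 of 2660 nuclear peaks (1.73%). In the series list they were 0 of 249 against 4 of 440 in the rest of IV and 27 of 4203 nuclear peaks (0.64%). These counts are too small to set the domains apart. The widest series-list peak of the right domain, 14032474 to 14034521, was 2048 bp wide and was found in both replicates at 1907 and 2504 bp. Peaks of a list come from the same libraries and are no replicates, so widths, distances and score ranks were not tested.

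Series-list peaks covered 1.17% of the left domain and 1.38% of the right domain, against 1.57% of the rest of IV, which gives ratios of 0.75 and 0.88. When peaks over 3 kb were left out, an alternative chosen after seeing the data, the ratios were 0.82 and 0.97.

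Score ranks differed between the lists. The files do not state what the score measures, so each score was turned into its percentile among the nuclear peaks of its own list. In the series list the median percentile was 42.8 in the left domain and 50.3 in the right domain, against 49.2 in the rest of IV. In replicate 1 it was 44.1 and 46.5 in the domains, against 59.4 in the rest of IV. In replicate 2 it was 38.3 and 53.7, against 52.8. The rest of IV was not uniform in replicate 1: its median was 45.2 left of the left domain, close to the domains, and 65.1 between the domains. The lower replicate 1 ranks of the domains were therefore shared by another part of IV. In replicate 2 these stretches had 48.9 and 55.9.

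The strongest peaks of each replicate were less frequent in the domains than in the rest of IV. Among the strongest 10% of replicate 1, a class that holds 10% of all nuclear peaks by construction, there were 2 of the 111 domain peaks (1.80%), against 14 of 175 in the rest of IV (8.00%). The difference was -6.20 percentage points (95% Newcombe interval -11.3 to -0.67). For replicate 2 it was 10 of 174 (5.75%) against 32 of 271 in the rest of IV (11.8%), a difference of -6.06 points (-11.2 to -0.46). The series list did not show this: 27 of 249 domain peaks (10.8%) and 46 of 440 peaks of the rest of IV (10.5%) were in its strongest 10%, a difference of 0.39 points (-4.20 to 5.53). The left domain held 1 of the 2 such replicate 1 peaks and 3 of the 10 replicate 2 peaks, and for either domain alone every interval of the difference included 0. The share was not uniform over the rest of IV: in replicate 1 it was 6.15% left of the left domain (4 of 65) and 9.26% between the domains (10 of 108), and in replicate 2 it was 8.04% (9 of 112) and 14.9% (23 of 154). The threshold was chosen after seeing the data, and the intervals cover the counting of peaks only, with no adjustment for the number of shares compared.

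**Figure D4:**
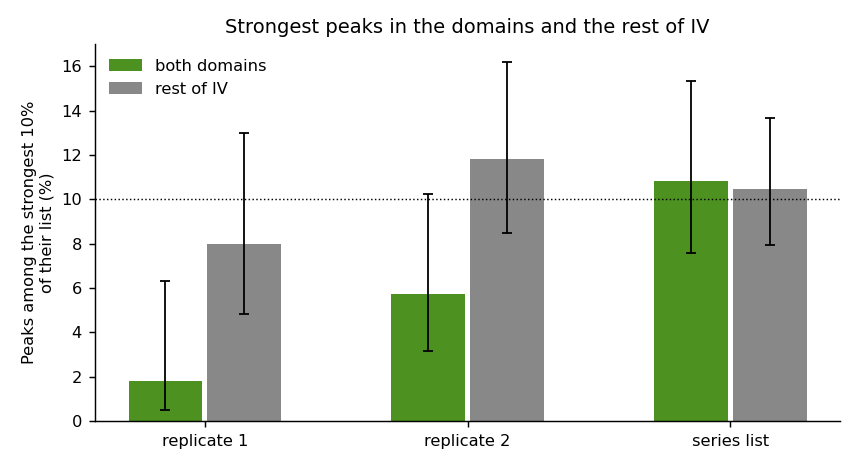
Bars are the share of TBP-1 peaks that rank among the strongest 10% of their own list, for both domains together and for the rest of IV; error bars are 95% Wilson intervals and the dotted line marks 10%. The domains are at 1.80% in replicate 1 and 5.75% in replicate 2, below the rest of IV at 8.00% and 11.8%, and at 10.8% in the series list, beside 10.5%.

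At the top of the left domain stood the peak 5966818 to 5967430. It had a score of 246.22 in the series list (99.8th percentile), 3120.68 in replicate 1 (99.6th) and 3100 in replicate 2 (96.1st, a score shared by many peaks), and was 613, 787 and 1084 bp wide in these lists. It was the only left domain peak in the strongest 10% of replicate 1. The next peaks found in both replicates were 6556472 to 6557042, 4949664 to 4950096, 4864490 to 4864905 and 5038573 to 5039128, with series-list scores of 212.80, 209.19, 203.20 and 202.01. Their replicate 1 scores were 1234.88, 1366.93, 1171.82 and 1292.05, and their replicate 2 scores 2607.29, 1672.18, 1488.37 and 2166.71. In replicate 1 these 4 ranked at the 78.6th to 81.6th percentile, under their ranks in the series list, which were all above the 95th. These percentiles come from lists of 1684 and 4203 nuclear peaks, so they are not directly comparable.

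The strongest peaks of the right domain were 16382045 to 16382689 and 16775819 to 16776411, each with a series-list score of 234.58. The first of them scored 2342.84 in replicate 1 and 3114.23 in replicate 2, and was the only right domain peak in the strongest 10% of replicate 1. The second scored 2103.85 and 2240.58. The peaks 14838044 to 14838618, 14013650 to 14014086 and 16398033 to 16398725 followed, with series-list scores of 230.25, 222.46 and 210.38. In replicate 2 these 3 scored 3100, 2269.38 and 3100, and in replicate 1 they scored 2133.59, 1269.19 and 1008.67.

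Part of the right domain's strong signal lay close together, in a stretch picked out after its values were seen. From 16381969 to 16401442, a span of 19.5 kb, there were 8 series-list peaks, of which 6 were in the strongest 10% of the list. Replicate 1 had 7 peaks there with scores of 268.58 to 2342.84. Replicate 2 had 4 peaks there with scores of 2656.94 to 3114.23, all in the strongest 10% of its list, and the whole right domain had 7 such replicate 2 peaks.

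Of the 249 domain peaks, 93 overlapped a peak of each replicate by at least 1 bp (37.3%, 95% Wilson interval 31.6 to 43.5), against 164 of 440 in the rest of IV (37.3%) and 34.5% of all nuclear series-list peaks. The difference between the domains and the rest of IV was 0.077 points (95% Newcombe interval -7.31 to 7.64). By domain, 30 of 94 peaks were found in both replicates in the left domain (31.9%, 23.4 to 41.9) and 63 of 155 in the right domain (40.6%, 33.2 to 48.5). The left domain differed from the rest of IV by -5.36 points (-15.1 to 5.54) and the right domain by 3.37 points (-5.36 to 12.4). Both intervals include 0. When centres had to lie within 100 bp, the left domain's difference turned to 4.94 points (-4.52 to 15.6), with shares of 30.9% in the left domain and 25.9% in the rest of IV. Taken one replicate at a time, 110 of the 249 domain peaks overlapped a replicate 1 peak (44.2%), against 40.0% in the rest of IV and 39.7% of all nuclear series-list peaks. A replicate 2 peak was overlapped by 167 domain peaks (67.1%), against 66.8% in the rest of IV and 65.8% of all nuclear series-list peaks.

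Peaks found in neither replicate were 24 of 94 in the left domain (25.5%) and 41 of 155 in the right domain (26.5%), against 134 of 440 in the rest of IV (30.5%) and 29% of all nuclear series-list peaks. Replicate 1 alone accounted for 10 of 94 peaks in the left domain (10.6%) and 7 of 155 in the right domain (4.52%), against 12 of 440 in the rest of IV (2.73%) and 5.21% of all nuclear series-list peaks. The left domain lay 7.91 points above the rest of IV (2.76 to 15.8). It rested in part on the 3333-bp replicate 1 peak: without series-list peaks inside replicate 1 peaks over 3 kb, an alternative chosen after seeing the data, 5 of 89 peaks remained (5.62%), against 10 of 438 in the rest of IV (2.28%), a difference of 3.33 points (-0.37 to 10.3). The right domain's share is thus near that of all nuclear peaks, and the rest of IV is below it. The nuclear share still includes peaks inside such broad peaks, so the left domain's 5.62% cannot be set beside it. Its full share of 10.6% is above that of all nuclear peaks. The 10 left domain peaks belonged to 5 replicate 1 peaks.

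**Figure D5:**
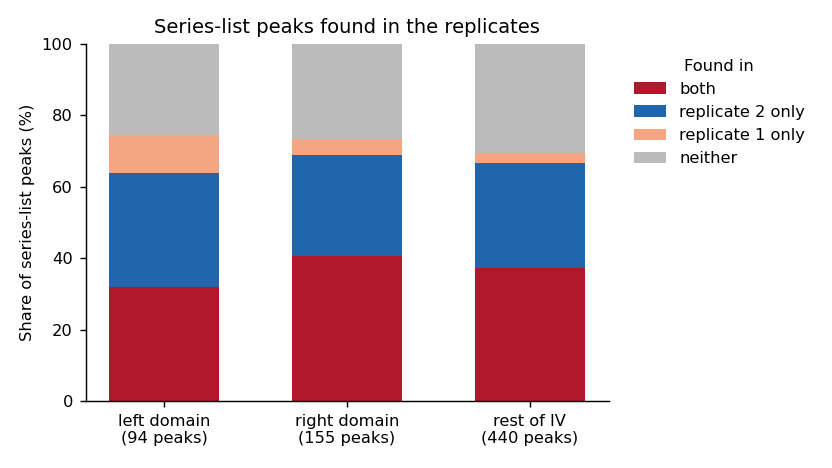
Stacked bars show, for the series-list peaks of each domain and of the rest of IV, the percentage that overlapped a peak of both replicates, of 1 replicate only or of neither by at least 1 bp. The share found in both is 31.9% in the left domain, 40.6% in the right domain and 37.3% in the rest of IV.

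Peaks found in both replicates were stronger and wider than the others. In the domains their median series-list score was 64.96, with a range of 3.58 to 246.22, and their median width 424 bp. For those found in replicate 2 only the medians were a score of 10.33 and a width of 245 bp, and for those found in neither 5.59 and 182 bp. In the rest of IV the same 3 classes had median scores of 75.63, 10.305 and 5.59 and median widths of 459.5, 263 and 180 bp. Peaks found in replicate 1 only differed more, with few on either side. Their medians were 5.75 and 277 bp over 17 domain peaks, against 17.76 and 401.5 bp over 12 peaks of the rest of IV. All 27 domain peaks in the strongest 10% of the series list were found in both replicates, as were all 421 such nuclear peaks. The strongest peaks found in neither replicate were 6094114 to 6094320, 6919378 to 6919544 and 6585490 to 6585667 in the left domain, with scores of 10.75, 7.84 and 7.68. In the right domain they were 13579577 to 13579762, 14464124 to 14464333 and 15472463 to 15472640, with scores of 15.90, 14.15 and 11.91. These 6 peaks were 167 to 210 bp wide.

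Over the 93 domain peaks found in both replicates, ranks of the scores ran in parallel, with Spearman's rho of 0.86 between the series list and replicate 1, 0.84 between the series list and replicate 2, and 0.74 between the replicates. In the rest of IV the values over 164 peaks were 0.77, 0.86 and 0.81. These are descriptions across peaks of the same 2 libraries, and a replicate peak can stand behind more than 1 series-list peak. The replicate 2 peak was wider than the replicate 1 peak at each of the 93 domain peaks, and also at each of the 164 in the rest of IV.

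The overlap was also counted from the replicate lists. Replicate 1 had 111 domain peaks, of which 91 overlapped a replicate 2 peak (82.0%), against 159 of 175 in the rest of IV (90.9%) and 85.2% of all nuclear replicate 1 peaks. The difference was -8.88 points (-17.7 to -0.91), and the domain share lay close to that of all chromosomes. Replicate 2 had 174 domain peaks, of which 87 overlapped a replicate 1 peak (50.0%), against 147 of 271 in the rest of IV (54.2%) and 49.6% of all nuclear replicate 2 peaks, a difference of -4.24 points (-13.6 to 5.21). Domain peaks without a counterpart in the other replicate were weak, with median percentiles of 11.6 for 20 replicate 1 peaks and 23.9 for 87 replicate 2 peaks. Such peaks were weak in the rest of IV too, at 20.5 for 16 replicate 1 peaks and 27.4 for 124 replicate 2 peaks. The strongest such domain peak was the 3333-bp replicate 1 peak at the 73.4th percentile, followed by the replicate 2 peak 16503358 to 16504209 at the 72.5th.

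A few replicate peaks of the domains were missing from the series list. Of the replicate 2 domain peaks 153 of 174 overlapped a series-list peak (87.9%), against 257 of 271 in the rest of IV (94.8%) and 93.7% of all nuclear replicate 2 peaks, a difference of -6.90 points (-12.9 to -1.68). Of the replicate 1 domain peaks 103 of 111 did (92.8%), against 170 of 175 in the rest of IV (97.1%) and 95.3% of all nuclear replicate 1 peaks, with a difference of -4.35 points (-10.9 to 0.72). The 21 replicate 2 peaks that were missing had scores of 50.20 to 137.68, with a median of 60.9, and 0 of them overlapped a replicate 1 peak. The rest of IV was alike: its 14 missing replicate 2 peaks had a median score of 58.3, and 0 overlapped a replicate 1 peak.

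At the bounds, the first peak inside the left domain was 4513492 to 4513746 (score 7.41, in neither replicate) and the last outside was 4469810 to 4470110 (17.78, in replicate 2 only). At its other end these were 6958900 to 6959055 (5.59) and 7039531 to 7039677 (7.12), both in neither replicate. The right domain began with 13503086 to 13503231 (3.98, in neither), after 13463777 to 13464211 outside it (14.94, in both). It ended with 17169522 to 17169773 (2.89, in neither), before 17249740 to 17249980 outside it (35.45, in replicate 2 only). All 4 peaks just inside the bounds were weak peaks of the series list without a replicate counterpart. Such peaks without a counterpart were 65 of the 249 domain peaks (26.1%) and 29% of all nuclear series-list peaks. With only 4 peaks, this does not show a trait of the domain edges.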

How the data were processed

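Reads were aligned with BWA, with no version given, to ce10, per the submitters' processing notes; the lists are on WormBase WS220 and name MACS (replicates) and MACS v2 (series list) as caller, per the file headers. Caller settings, control and the making of the series list were not given in the sources used here, so that treating it as a list of the TBP-1 ChIP samples is an assumption. The deposited values are start, end and a score of unstated scale, used as ranks within a list. Caller, read depth and control affect number and width of peaks.

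Mitochondrial peaks were left out. IV was taken to end at its last peak, 17493824. Overlap needed 1 bp; percentiles were over nuclear peaks. Densities were compared with exact binomial tests (threshold 0.05, 9 tests: each domain against the rest of IV and against the other, in 3 lists), shares with 95% Wilson and Newcombe intervals, which cover counting only. The density test was tried on simulated peak counts drawn as independent, which cannot show how it behaves where peaks cluster. Named peaks were the 5 strongest per domain found in both replicates, the 3 strongest found in neither, the widest, the closest pair by distance of centres, the longest empty stretch and the fullest 100-kb windows. Domains, tests and this rule were chosen with earlier results of these data known. Python 3.11.15, numpy 2.4.6, pandas 2.3.3, scipy 1.17.1 and matplotlib 3.10.9 were used. No WS220 genome or annotation was used here, so no sequence is printed. The alternatives are given in the closing section.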

Additional observations from a re-analysis of the deposited data

How the results depend on the processing

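None of the 38 recomputed density tests passed the threshold (exact binomial tests, lowest adjusted p = 0.068, left against right domain with the stronger 50% of replicate 2). Settings with fewer peaks have less power. Direction turned in 6 of the tests: for the right domain of replicate 1 (0.97) and the left domain of replicate 2 (0.68) with the stronger 50% of each list, for the left domain of replicate 1 with neighbours closer than 500 bp merged (1.05), for the left domain of replicate 1 (1.74) and of the series list (1.19) against 1 Mb on each side, and for the left domain of replicate 2 (0.97) when domains were narrowed by 500 kb on each side. Both domains together moved in replicate 1 to 0.88 with the stronger 50% and to 1.51 (1.04 to 2.24, an interval without 1) against 1 Mb on each side. Right of the right domain this reference was only 0.294 Mb, where IV was taken to end. Counting covered base pairs gave 0.92 and 1.04 (right domain, replicate 1 and replicate 2), 0.83 and 0.95 (both domains, replicate 1 and replicate 2), and 0.75, 0.88 and 0.83 (left, right and both domains, series list). Without peaks over 3 kb the right domain's covered ratio was 1.16 and 1.15 in the replicates. With only peaks found in both replicates, the series-list medians of the left and right domain minus those of the rest of IV became -58.5 and -28.5 bp for width and -5.42 and 10.4 kb for spacing, and -1.74 for the left domain's score percentile; the cause was not tested. With centres within 100 bp the share found in both replicates, minus the rest of IV, was 4.94 points in the left domain, turned from -5.36 but inside its interval. Of the 114 values 95, this share among them, kept their direction and call or stayed within their interval or replicate spread. Left out one at a time, the replicates gave mean ratios of 0.96 to 1.07 (left domain) and 1.24 to 1.29 (right domain), and shares found in the remaining replicate, minus the rest of IV, of -2.99 to 2.55, 2.21 to 5.16 and 0.25 to 4.18 points (left, right and both domains). The lower share of strong peaks in the domains held with the strongest 25% (-10.9 points in replicate 1 and -8.67 in replicate 2) and without peaks over 3 kb (-6.52 and -5.62), but the series list showed none (0.77 and 0.29 points); these alternatives were chosen after seeing the data. No paired analysis was possible because the tests compare stretches of 1 chromosome within a list, and the input samples that share the replicate numbers have no list among the files used here. Unknown read depth limits what missing weak peaks show.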
